A study of Mus musculus with 3 samples.

Results

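Hamp2, a mouse copy of the hepcidin gene, and 6 further iron handling genes were followed in stromal cells of mouse lymph nodes. The 7 genes were taken by symbol from the 51912 genes counted. They are Hamp2 (ENSMUSG00000056978) and Hamp (ENSMUSG00000050440), the exporter Slc40a1 (ENSMUSG00000025993), the ferritin chains Fth1 (ENSMUSG00000024661) and Ftl1 (ENSMUSG00000050708), the transferrin receptor Tfrc (ENSMUSG00000022797) and the iron-sulfur scaffold Iscu (ENSMUSG00000025825). The list was proposed with earlier results of the same UMI counts in view, so its members count as selected on their own measured levels, which are given as a description, without p-values.

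Iron enters most cells bound to transferrin, through the transferrin receptor encoded by Tfrc, and what is not used is stored inside ferritin, a shell of heavy (Fth1) and light (Ftl1) chains. Ferroportin, encoded by Slc40a1, is the known exporter of iron from cells, and hepcidin, the peptide encoded by Hamp, binds ferroportin and has it degraded. Hepcidin is made mainly by the liver, where bone morphogenetic protein signalling through SMAD factors and interleukin-6 signalling through STAT3 raise its transcription. Hamp2 is a second hepcidin gene of the mouse, whose action on iron is less well known. Iscu is the scaffold on which iron and sulfur are joined into the clusters that many enzymes carry.

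The cells came from draining lymph nodes of C57BL/6 mice with a transgene of Cre and the red protein TdTomato under the promoter of Cxcl13, which encodes a chemokine of the follicle, so that red marks cells that use this promoter. Live cells positive for podoplanin (PDPN) and TdTomato were sorted, without CD31 or CD45 on their surface according to the sample labels, and all 3 libraries share this genotype and sort. The 2-IC group had 2 libraries (replicates 1 and 2) from mice given a first antigen-immunocomplex (IC) 7 days and a second 24 h before analysis, and the 1-IC group had 1 library from mice given 1 IC 24 h before. Lymph nodes of several mice were pooled, so that a library is a replicate and a cell is not, and no library came from mice without an IC. Mouse age was not given in the sources used here. The study's methods describe independent experiments without saying which gave each library. The short descriptions of the 2-IC libraries name 24 h and 7 days in turn, while their titles state the same treatment.

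Unique molecular identifiers (UMIs), sequence tags that each mark a single RNA molecule, were counted per gene and barcode from the 3′ end of the RNA. 2-IC replicate 1 held 3790 barcodes and 20607903 UMIs, 2-IC replicate 2 held 1029 and 12788101, and the 1-IC library held 667 and 3766526. After filtering, 1526, 391 and 326 cells were kept, 2243 of 5486, with median UMIs per cell of 4700.5, 14732 and 5979. 2-IC replicate 2 stood apart in depth and in cell types, since it gave 161 of the 190 cells of cluster 7 and all 99 cells of cluster 8, so each level is given per library. 78 barcode sequences occurred in more than 1 library, 16 of them among kept cells.

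Clusters were made without the 7 genes and without the other iron genes, and were named from marker genes. FDC-like cells (244) were led by Cr2, the complement receptor of follicular dendritic cells, at 1037 ± 206 CPM (counts per 1000000 UMIs; mean ± SD of 3 libraries). IFRC-like cells (395), named for interfollicular reticular cells, were led by Igha, Timd4, Tnfsf11 and Ch25h, and MedRC-like cells (262), named for medullary reticular cells, by Kcnk3, Car3, Saa3 and Stc1. TBRC-like cells (235), named for T-B border reticular cells, had Fmod and Ccl21a among their leading genes. Cd34 stroma-like cells (245) were led by the chemokines Cxcl2, Cxcl1 and Ccl7, with Il6, Cd34 and Ly6a behind them. Smaller clusters were Interferon response-like (33) and Myeloid-like (56), and clusters 2, 5, 7 and 8 stayed unnamed. Marginal reticular cells, known for Madcam1 with Tnfsf11, had no cluster of their own. Their list (Madcam1, Tnfsf11, Enpp2) summed to 5148 to 6223 CPM in IFRC-like, 3224 to 5295 in MedRC-like and 2693 to 3563 in FDC-like cells. The IFRC list (Tnfsf11, Ch25h, Cxcl13) summed to 13181 to 17911 CPM in IFRC-like but 27120 to 47263 in FDC-like cells. The name IFRC-like thus rests on leading genes and does not tell interfollicular from marginal reticular cells. Cr2 was near 0 in IFRC-like (1.13 ± 1.95 CPM) and MedRC-like cells (2.23 ± 3.86 CPM), and Cxcl13 was detected in 98.8%, 99.5%, 99.2% and 95.7% of FDC-like, IFRC-like, MedRC-like and TBRC-like cells.

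Hamp2 lies on mouse chromosome 7 at 30922372 to 30924681 and Hamp at 30942368 to 30944032 of GRCm38, both on the minus strand. Their RNAs are close copies. The last 300 bases of their transcripts, the part a 3′ library reads, were 92.7% identical over 273 aligned positions, with 20 mismatches and a longest shared run of 87 bases in the whole transcripts. A read inside such a run cannot be given to one gene, and the deposited counts hold only what the authors' counting assigned. The region upstream is shown here for both genes, since the 2 copies differed in the cells that held them. Each sequence is the 250 bases before the RefSeq start (GRCm38.p6, minus strand, 5′ to 3′), and capitals mark GGCGCC, known in the hepcidin promoter as a response element for bone morphogenetic proteins, and TTCTTGGAA, known there as a STAT3 site.

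Hamp2, chr7:30924182-30924431: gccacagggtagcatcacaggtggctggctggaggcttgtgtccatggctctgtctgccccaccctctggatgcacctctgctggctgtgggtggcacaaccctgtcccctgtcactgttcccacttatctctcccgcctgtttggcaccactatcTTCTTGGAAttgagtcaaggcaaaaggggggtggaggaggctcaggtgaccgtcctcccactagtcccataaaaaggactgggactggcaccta

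Hamp, chr7:30944030-30944279: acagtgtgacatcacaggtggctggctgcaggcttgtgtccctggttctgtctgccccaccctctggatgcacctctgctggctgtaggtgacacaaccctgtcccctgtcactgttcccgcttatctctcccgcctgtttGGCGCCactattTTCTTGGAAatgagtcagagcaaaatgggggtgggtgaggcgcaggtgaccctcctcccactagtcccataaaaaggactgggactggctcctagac

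The windows were identical at 227 of 247 aligned positions (91.9%), with 20 substitutions and 6 gap positions. TTCTTGGAA occurred in both, 97 bases before the start of Hamp (position -97) and at -94 of Hamp2. GGCGCC occurred in Hamp at -109 and not in Hamp2, where the 1 substitution within these letters was G145A, counted from 1 at the 5′ end of the Hamp window, with the Hamp base first. On either strand, GGCGCC was found in 9.59% of 32851 such windows of 27025 genes and TTCTTGGAA in 0.365%, while the looser TTCNNNGAA, which includes it, was in 7.02%. These matches describe letters and not binding. In the GENCODE M21 annotation the Hamp2 window abuts the start of some transcripts and lies in an intron of another. Gm44662, an antisense gene on the plus strand, spans both genes, with 1 exon over Hamp2 and 0 over Hamp, and its own count was 0 in every cluster.

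The other sequence feature of the members is the iron-responsive element (IRE), an RNA hairpin bound by iron regulatory proteins when iron is low. An IRE in the 5′ untranslated region holds back translation, and those in the 3′ untranslated region of Tfrc protect the RNA. A search of GENCODE M21 transcripts for a bulged C, a 5-base stem and a 6-base loop gave 1 match each in the 5′ untranslated regions of Fth1, Ftl1 and Slc40a1 and 4 in the 3′ untranslated region of Tfrc, shown as DNA with the bulged C and the loop in capitals.

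Fth1: ttcctgCttcaaCAGTGCttgaacggaa

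Ftl1: gtcttgCttcaaCAGTGTttgaacggaa

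Slc40a1: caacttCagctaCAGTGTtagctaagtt

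Tfrc, from base 3321: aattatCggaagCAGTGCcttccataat

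Tfrc, from base 3700: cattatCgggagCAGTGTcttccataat

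Tfrc, from base 3765: ctatatCggagaCAGTGAtctccatatg

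Tfrc, from base 3812: aattatCgggaaCAGTGTttcccataat

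No match was found in Hamp, Hamp2 or Iscu. Of 21877 protein-coding genes searched, 23 (0.105%) had a match in a 5′ and 100 (0.457%) in a 3′ untranslated region. Control through these hairpins acts on translation and on RNA decay, and UMI counts read RNA only.

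Hamp2 was at its highest levels in IFRC-like and MedRC-like cells. In IFRC-like cells it was at 287 and 266 CPM in replicates 1 and 2 of the 2-IC group and at 388 in the 1-IC library (314 ± 65.6, SD, n = 3 libraries), the order in which libraries are given throughout. In MedRC-like cells it was at 260, 125 and 271 CPM (219 ± 81.3, n = 3). The ranges of these clusters overlapped, and the lowest of these 6 values lay above every value of every other cluster, of which the highest was 90.02 CPM in cluster 5 of 2-IC replicate 1. That lowest value, of MedRC-like cells in 2-IC replicate 2, rested on 14 UMIs among 10 cells. The 0 of Myeloid-like cells in that library, from 6 cells with a median of 1210 UMIs, was not resolved from these values. Over the libraries together, IFRC-like cells gave 850 of the 1486 Hamp2 UMIs (57.2%) with 17.7% of all UMIs, and MedRC-like cells gave 380 (25.6%) with 9.42%. Per library, these clusters gave 593 and 311 of 988, 89 and 14 of 264, and 168 and 55 of 234. In 2-IC replicate 2, cluster 7 gave 124 of the 264, from 161 of 391 kept cells. With the barcodes that carried contaminant genes kept and all cells clustered anew, the mean of MedRC-like cells was 123 CPM and that of IFRC-like cells 307.

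TBRC-like and Cd34 stroma-like cells, sorted in the same suspension, held almost no Hamp2. TBRC-like cells were at 1.31, 0 and 0 CPM, from 2 UMIs in 235 cells with a median of 7742 UMIs per cell. Cd34 stroma-like cells were at 3.55, 0 and 0 CPM, from 5 UMIs. Taking a count of 0 to allow 3 counts, the libraries at 0 allowed up to 43.8 and 8.85 CPM in TBRC-like and 14.5 and 27.0 in Cd34 stroma-like cells. FDC-like cells were low as well, at 43.6, 7.38 and 11.2 CPM (20.7 ± 19.9, n = 3).

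Other clusters held Hamp2 at levels between these, and neighbours in that order overlapped. Interferon response-like cells were at 14.3 CPM in the 1-IC library and 83.7 in replicate 1 of the 2-IC group. Cluster 7 was at 17.8 and 48.7 CPM in the 2-IC libraries, and cluster 8 at 18.2 in 2-IC replicate 2. Cluster 5, of low depth (median 1179 UMIs per cell) and led by immunoglobulin genes, was at 90.02, 0 and 0 CPM, and Myeloid-like cells at 46.4, 0 and 0, from 3 UMIs. Cluster 2 was at 16.9 CPM in the 1-IC library, from 4 UMIs, and at 8.87 in replicate 1 of the 2-IC group, from 7 UMIs. Both lay above all values of Cd34 stroma-like cells. In the 1-IC library the 0 of Cd34 stroma-like cells allowed a level above 16.9 CPM, so the order was not resolved there.

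**Figure D1:**
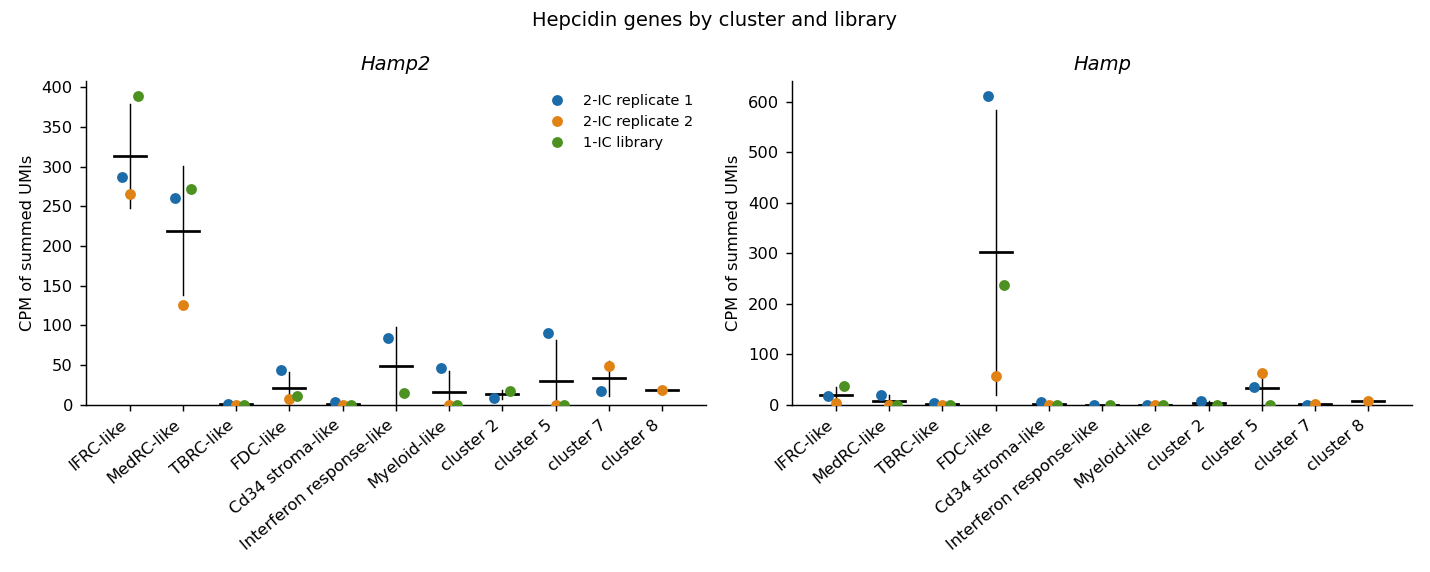
Hamp2 (left) and Hamp (right) by cluster, in CPM of the UMIs summed per library and cluster (y axis, linear from 0); dots are libraries with at least 5 cells, coloured by library, black bars are means and thin lines are ± 1 SD over libraries. Hamp2 stands at 125 to 388 CPM in IFRC-like and MedRC-like cells, while Hamp stands at 56.6 to 611 CPM in FDC-like cells.

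Hamp2 was detected in a minority of the cells of either type. With each cell thinned to 2000 UMIs, 24.1% of 381 IFRC-like cells had a Hamp2 UMI (exact binomial 95% interval for counting error 19.9 to 28.8, libraries 15.8 to 27.8) and 23.2% of 254 MedRC-like cells (18.2 to 28.9). Without thinning these shares were 33.7% and 35.9%. TBRC-like cells, a type with next to no Hamp2, had a thinned share of 0.429% (0.0109 to 2.37), and FDC-like cells had 3.38% (1.37 to 6.84). The other clusters ran from 1.23% (Cd34 stroma-like) to 5.26% (cluster 7), apart from Myeloid-like cells. Myeloid-like cells had a share of 10.5%, from 2 of 19 cells. The upper limit of its interval, 33.1%, lay above the shares of IFRC-like and MedRC-like cells, so these were not resolved from it. Free RNA was not measured separately, and its part in these shares was not tested. Thinning left out 14 IFRC-like, 8 MedRC-like, 2 TBRC-like, 37 FDC-like and 37 Myeloid-like cells that were shallower.

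The 2 types highest in Hamp2 both had Tnfsf11, a gene that IFRC-like cells were named by, and differed in other markers. Tnfsf11, the cytokine RANKL, was at 326 ± 26.3 CPM in IFRC-like and 135 ± 27.4 in MedRC-like cells, against 111 ± 29.5 in FDC-like and 23.7 ± 20.8 in TBRC-like cells (n = 3). The levels of MedRC-like and FDC-like cells overlapped within their SD. Since FDC-like cells were low in Hamp2, Tnfsf11 was not particular to the types high in Hamp2. Inmt, a methyltransferase used here to mark MedRCs, was at 1323 ± 485 CPM in MedRC-like, 259 ± 99.3 in IFRC-like and 227 ± 5.67 in TBRC-like cells. Cyp2f2, a cytochrome P450 and another MedRC marker, was at 250 ± 142 CPM in MedRC-like and 16.5 ± 14.3 in IFRC-like cells.

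Gates drawn on marker UMIs alone were used beside the clusters. A cell was in the FDC gate with a UMI of Cr2, in the MedRC gate with Inmt, in the IFRC gate with Tnfsf11 and in the TBRC gate with both Fmod and Ccl21a. Cells of the latter 3 gates had no UMI of Cr2, nor of the others among Inmt, Tnfsf11 and Fmod, while the FDC gate excluded none, so that 20% of its cells also had Tnfsf11, 20% Inmt and 7.39% Fmod. They held 230, 636, 203 and 89 cells, and 1085 cells stayed outside. Hamp2 was at 182, 19.9 and 78.4 CPM in the IFRC gate (93.5 ± 82.2, n = 3) and at 91.3, 44.9 and 84.5 in the MedRC gate (73.5 ± 25.1). It was at 46.1, 11.99 and 9.34 CPM in the FDC gate (22.5 ± 20.5) and at 9.46, 40.8 and 0 in the TBRC gate (16.8 ± 21.4), where the 15 UMIs of 2-IC replicate 2 came from 1 cell. The IFRC and MedRC gates overlapped, and in 2-IC replicate 2 the IFRC gate was lower than the MedRC and TBRC gates. In that library 32 UMIs of the MedRC gate also came from 1 cell, so both of these higher values leaned on a single cell. The cells outside the gates were at 148, 55.3 and 196 CPM and gave 62.9% of Hamp2 UMIs.

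The gates mixed cells of several clusters, and within a gate Hamp2 differed by cluster. The MedRC gate held 121 MedRC-like cells, 147 of cluster 2, 125 Cd34 stroma-like, 60 of cluster 7 and 54 IFRC-like cells. Results for this gate thus describe cells with Inmt from several clusters. MedRC gate cells that lay in the IFRC-like or MedRC-like clusters (175) were at 243, 124 and 309 CPM, while those elsewhere (461) were at 12.6, 40.7 and 10.95, lower in 3 of 3 libraries. In 2-IC replicate 2 the 124 CPM rested on 7 UMIs among 6 cells, and 1 cell held 32 of the 44 UMIs behind the 40.7 CPM. IFRC gate cells in these clusters (125) were at 222, 63.4 and 130 CPM, the 63.4 from 6 UMIs among 6 cells. Those outside both them and the FDC-like cluster were at 10.2, 7.80 and 0. In the fit across all genes described further down, the log2 fold change of Hamp2 against the mean of the other gates was 1.37 (SE 0.33) in the IFRC, 0.99 (SE 0.31) in the MedRC, -1.08 (SE 0.43) in the FDC and -1.29 (SE 0.53) in the TBRC gate.

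Hamp, the hepcidin gene of the liver, was held by FDC-like cells. It was at 611, 56.6 and 237 CPM there (302 ± 283, n = 3), from 606 of its 729 UMIs (83.1%), and the mean was 147 CPM without 2-IC replicate 1. The next values were 63.2 CPM in cluster 5 of 2-IC replicate 2 and 37.0 in IFRC-like cells of the 1-IC library. Because cluster 5 was at 34.3, 63.2 and 0 CPM, its range overlapped that of FDC-like cells through 2-IC replicate 2, where FDC-like cells had 23 UMIs. IFRC-like cells were at 16.4, 2.98 and 37.0 CPM (18.8 ± 17.1), MedRC-like cells at 20.1, 0 and 0, and Myeloid-like and Interferon response-like cells at 0.

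In the marker gates Hamp was also highest with Cr2, and 172 of the 230 cells of the FDC gate were FDC-like cells. It was at 464, 55.2 and 318 CPM in the FDC gate, at 121, 9.93 and 58.8 in the IFRC gate, at 10.0, 0 and 0 in the MedRC gate and at 2.37, 0 and 0 in the TBRC gate, in that order in each library down to the values of 0. In 2-IC replicate 2, 1 cell held 22 of the 23 UMIs of the FDC gate, so the order there rested on 1 cell. Single cells also held 68 UMIs in the FDC gate of the 1-IC library and 52 in the IFRC gate of 2-IC replicate 1. The fitted log2 fold change was 5.24 (SE 0.24) in the FDC and 2.30 (SE 0.35) in the IFRC gate.

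Of the liver genes fixed as hepatocyte markers, Serpina1c had its highest level in FDC-like cells, as Hamp had, and the others were at or near 0 there. Of Alb, Apoa1, Ttr and Serpina1c, Alb and Ttr were at 0 in FDC-like cells of all libraries, and the 4 genes summed to 7.38 to 32.0 CPM, up to the highest value of any cluster. Serpina1c was at 19.4 ± 11.7 CPM in FDC-like and 11.3 ± 12.4 in IFRC-like cells, and at 16.8, 14.4, 0.582 and 0.788 CPM in the FDC, IFRC, MedRC and TBRC gates (means of 3 libraries). The related Serpina1e was among the genes that led the FDC-like cluster. In IFRC-like cells Alb, Apoa1 and Ttr were at 0 and the sum was 2.42 to 25.4 CPM. In MedRC-like cells the sum was 0 to 2.51 CPM. The part of liver RNA in the Hamp level was not tested.

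The 2 hepcidin genes had their highest levels in different clusters. FDC-like cells had 14.4 Hamp UMIs for each Hamp2 UMI, whereas there were 16.7 Hamp2 UMIs for each of Hamp in IFRC-like and 15.8 in MedRC-like cells. Cluster 7 had 127 Hamp2 UMIs and 2 of Hamp, both from 2-IC replicate 2. Of 2243 cells, 279 had Hamp2 only, 84 Hamp only and 34 both. Of the 118 cells with Hamp, taken over the libraries, 28.8% had Hamp2, beside 13.95% of all cells, with median depths of 5746 and 5544 UMIs. Per library it was 28.0% of 93, 66.7% of 9 and 12.5% of 16 cells with Hamp. The shares of all cells were 14.7%, 12.8% and 11.7%, so the 1-IC library differed little. Of the 34 cells with both, 18 were IFRC-like, where 64.3% of the 28 cells with Hamp had Hamp2, beside 33.7% of the cluster (median depths 7540 and 6219 UMIs). Of these 28 cells, 23 came from 2-IC replicate 1. In FDC-like cells 4 had both, 47 Hamp only and 14 Hamp2 only. These shares were compared without a test. Since each molecule is counted once whatever its length, these ratios compare captured molecules.

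Hamp UMIs lay in few cells. In 2-IC replicate 1 the highest FDC-like cell held 135 of 477 UMIs (28.3%) and 15 of 131 cells held 90%. In 2-IC replicate 2 a single cell held 22 of 23 UMIs (95.7%), and in the 1-IC library a cell held 68 of 106 (64.2%). Without the highest cell of each library the levels were 447, 2.65 and 86.9 CPM, so that the level of 2-IC replicate 2 rested on 1 cell. FDC-like cells with a Hamp UMI numbered 37, 2 and 12, 51 of 244 in all, and 13 had at least 10 UMIs.

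Hamp2 was spread over more cells. In IFRC-like cells of 2-IC replicate 1 the highest cell held 29 UMIs (4.89%) and 61 of 320 cells held 90%. Of the smaller libraries, the highest cell held 40 UMIs (23.8%) in the 1-IC library and 43 (48.3%) in replicate 2 of the 2-IC group. Leaving these cells out gave 274, 145 and 303 CPM. In MedRC-like cells it gave 248, 96.6 and 184 CPM. None of the highest cells had a barcode found in another library.

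**Figure D2:**
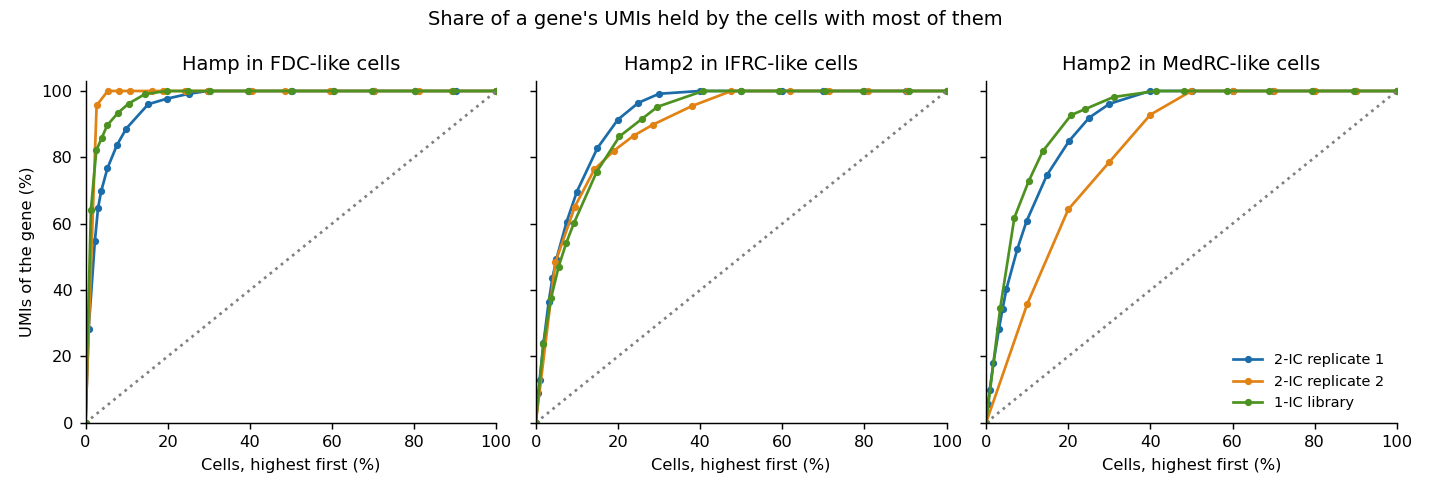
Share of a gene's UMIs (y axis, %) held by the cells with most of them (x axis, % of the cells of the type, highest first), for Hamp in FDC-like cells (left) and Hamp2 in IFRC-like (middle) and MedRC-like cells (right), 1 line per library; the dotted diagonal is an even spread. For Hamp the line of 2-IC replicate 2 jumps to 95.7% with its first cell, while for Hamp2 in 2-IC replicate 1 the first cell adds 4.89% (IFRC-like).

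FDC-like cells with and without Hamp were of like depth (median 5494 and 5253 UMIs). Cr2 was detected in 72.5% of the 51 cells with Hamp and 69.9% of the 193 without. Madcam1, an adhesion molecule, was detected in 74.5% and 51.8%, and Tnfsf11 in 39.2% and 20.2%. Madcam1 is known in marginal reticular cells but was also among the genes that led the FDC-like cluster. Its mean was 334 CPM in the FDC gate and 91.7 in the IFRC gate described above. Of the 13 cells with at least 10 Hamp UMIs, 92.3% had Madcam1 and 46.2% Tnfsf11. These shares count cells of 3 libraries together, 37 of the 51 from 2-IC replicate 1, and were compared without a test.

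Slc40a1, the exporter on which hepcidin acts, was close to absent from these libraries. It had 4, 2 and 0 UMIs in kept cells, or 0.480, 0.353 and 0 CPM, and the 0 of the 1-IC library allowed up to 1.48 CPM. Of the 6 UMIs, 2 were in IFRC-like cells, 2 in cluster 7, 1 in Cd34 stroma-like and 1 in TBRC-like cells, and FDC-like, MedRC-like and Myeloid-like cells had none. Clusters could not be ordered at this depth.

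Tfrc, through which transferrin-bound iron enters, was low and, by cluster, leaned to FDC-like cells. It was at 21.8, 34.4 and 8.96 CPM there (21.7 ± 12.7, n = 3), from 17, 14 and 4 UMIs, 36.8% of the gene's total. In 2-IC replicate 2, 7 of the 14 UMIs were in 1 cell. Cluster 8 was at 10.2 CPM in 2-IC replicate 2, from 19 UMIs (20% of the total), within the range of FDC-like cells and below those of the same library. Cluster 7 was at 5.92 and 3.93 CPM, below FDC-like cells. IFRC-like cells were at 5.80, 2.98 and 2.31 CPM and MedRC-like cells at 2.51, 0 and 4.93. Single values of 12.9 CPM (cluster 5, 2-IC replicate 1) and 9.01 (Cd34 stroma-like, 1-IC library) also reached the range of FDC-like cells and rested on 3 UMIs and 1 UMI. Between the marker gates the lean was not clear. Tfrc was at 16.2 ± 12.8 CPM in the FDC and 10.2 ± 0.533 in the IFRC gate (n = 3). The lowest library of the FDC gate, at 3.11 CPM, lay below all of the IFRC gate (9.80 to 10.8).

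Iscu, the iron-sulfur scaffold, was highest in FDC-like and Myeloid-like cells. FDC-like cells were at 610, 384 and 907 CPM (634 ± 262, n = 3) and Myeloid-like cells at 433, 690 and 326 (483 ± 187, n = 3), so that their ranges overlapped. Every other cluster had a mean between 92.9 and 214 CPM. IFRC-like cells were at 170, 116 and 252 CPM, MedRC-like cells at 167, 143 and 187 and TBRC-like cells at 138, 87.6 and 218, each below FDC-like cells in 3 of 3 libraries. At 2000 UMIs per cell, 59.9% of FDC-like cells had an Iscu UMI (52.9 to 66.6), against 29.1% of IFRC-like cells (24.6 to 34.0). The fitted log2 fold change in the FDC gate was 2.05 (SE 0.13).

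Myeloid-like cells were shallow, with a median of 1316 UMIs, and had a median of 0.0889% of their UMIs from Malat1, a nuclear RNA, beside 2.77% to 6.60% in the other clusters. The part of RNA quality in their Iscu level was not tested. The myeloid markers were low in FDC-like cells. All 8 genes of the list were detected there and summed to 106 to 231 CPM, against 7130 to 10464 in Myeloid-like cells and 47.7 to 170 in IFRC-like cells. Their part in the Iscu level was not tested.

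Within FDC-like cells, Iscu was higher where Malat1 was low. In 69 of the 244 cells Malat1 made up under 1% of UMIs, beside a median of 6.60% over all of them, and 17 cells lay between 0.5% and 2%. This split was chosen after the values were seen. The 175 cells with at least 1% had Iscu at 465, 142 and 596 CPM (401 ± 234), and the 69 cells under 1% had it at 1341, 1767 and 2826 (1978 ± 764), higher in 3 of 3 libraries.

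The ferritin chains were higher in the same cells. Ftl1 was at 2103, 836 and 1611 CPM in the cells with at least 1% Malat1 and at 4287, 2924 and 3965 under 1%, and Fth1 at 10720, 4548 and 13501 and at 17574, 7962 and 17772. Hamp had no such order, with 568, 66.5 and 200 CPM against 829, 0 and 466, nor had Tfrc, with 23.0, 34.7 and 7.81 CPM against 15.5, 33.0 and 16.1, the latter from 2, 2 and 1 UMIs. The cells with at least 1% Malat1 still had more Iscu than IFRC-like cells in each library. In 2-IC replicate 2 they were not above MedRC-like cells, at 142 against 143 CPM. The part of RNA quality in these values was not tested.

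**Figure D3:**
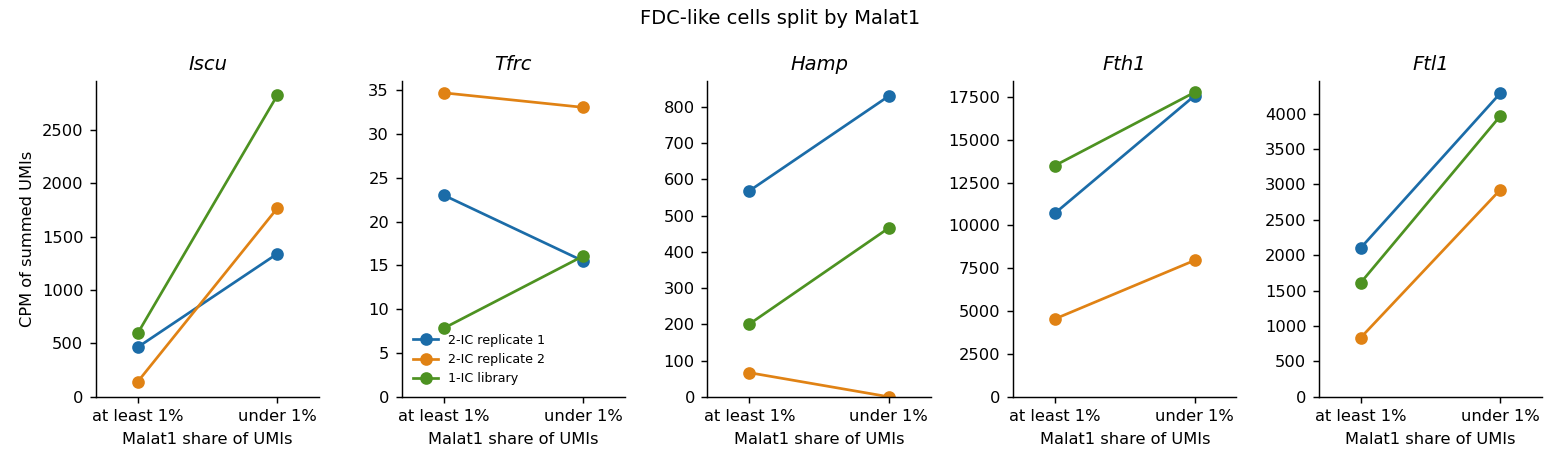
Levels of Iscu, Tfrc, Hamp, Fth1 and Ftl1 (y axes, CPM of summed UMIs, each panel from 0 on its own scale) in FDC-like cells with Malat1 at least 1% (left) or under 1% (right) of UMIs; each line joins the 2 values of a library. Iscu, Fth1 and Ftl1 are higher under 1% in all 3 libraries, while the lines of Hamp and Tfrc run in both directions.

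Fth1, the heavy ferritin chain with the enzyme site that oxidises iron, was the most abundant of the 7 genes in every cluster. It was at 10912, 6234 and 14257 CPM over all kept cells. IFRC-like cells were at 11915, 6578 and 15031 CPM, MedRC-like cells at 10347, 7397 and 15780, TBRC-like cells at 11268, 8493 and 13797 and FDC-like cells at 11852, 5056 and 14097. In each of these 4 types 2-IC replicate 2 was lowest and the 1-IC library highest.

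Fth1 had its lowest mean in cluster 7, at 5711 and 5988 CPM (5850 ± 196, n = 2), and its highest mean in Interferon response-like cells, at 16646 CPM in the 1-IC library and 11963 in replicate 1 of the 2-IC group. All neighbours in the order of means overlapped except cluster 5 and cluster 7. In the fit, the log2 fold changes of Fth1 in the 4 gates ran from -0.18 (SE 0.10) in the FDC to 0.20 (SE 0.10) in the MedRC gate.

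Ftl1, the light chain that lines the iron core, was higher in Myeloid-like cells, those with the least Malat1 (median 0.0889% of UMIs), than in stroma. It was at 5199, 6210 and 5069 CPM in Myeloid-like cells (5493 ± 624, n = 3), and the next cluster, MedRC-like, was at 2962, 2558 and 2297 (2606 ± 335), without overlap. Below MedRC-like cells each cluster overlapped its neighbour, from cluster 2 (2324 ± 155, n = 2) over IFRC-like (1974 ± 391), FDC-like (1850 ± 663) and TBRC-like cells (1719 ± 418) to cluster 5 (1276 ± 218, n = 3). The fitted log2 fold changes of Ftl1 ran from -0.29 (SE 0.12) in the TBRC to 0.37 (SE 0.11) in the MedRC gate. Pseudogenes that resemble ferritin drew few counts, 187 UMIs of Ftl1-ps1, 15 of Fth-ps2 and 2 of Ftl1-ps2.

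**Figure D4:**
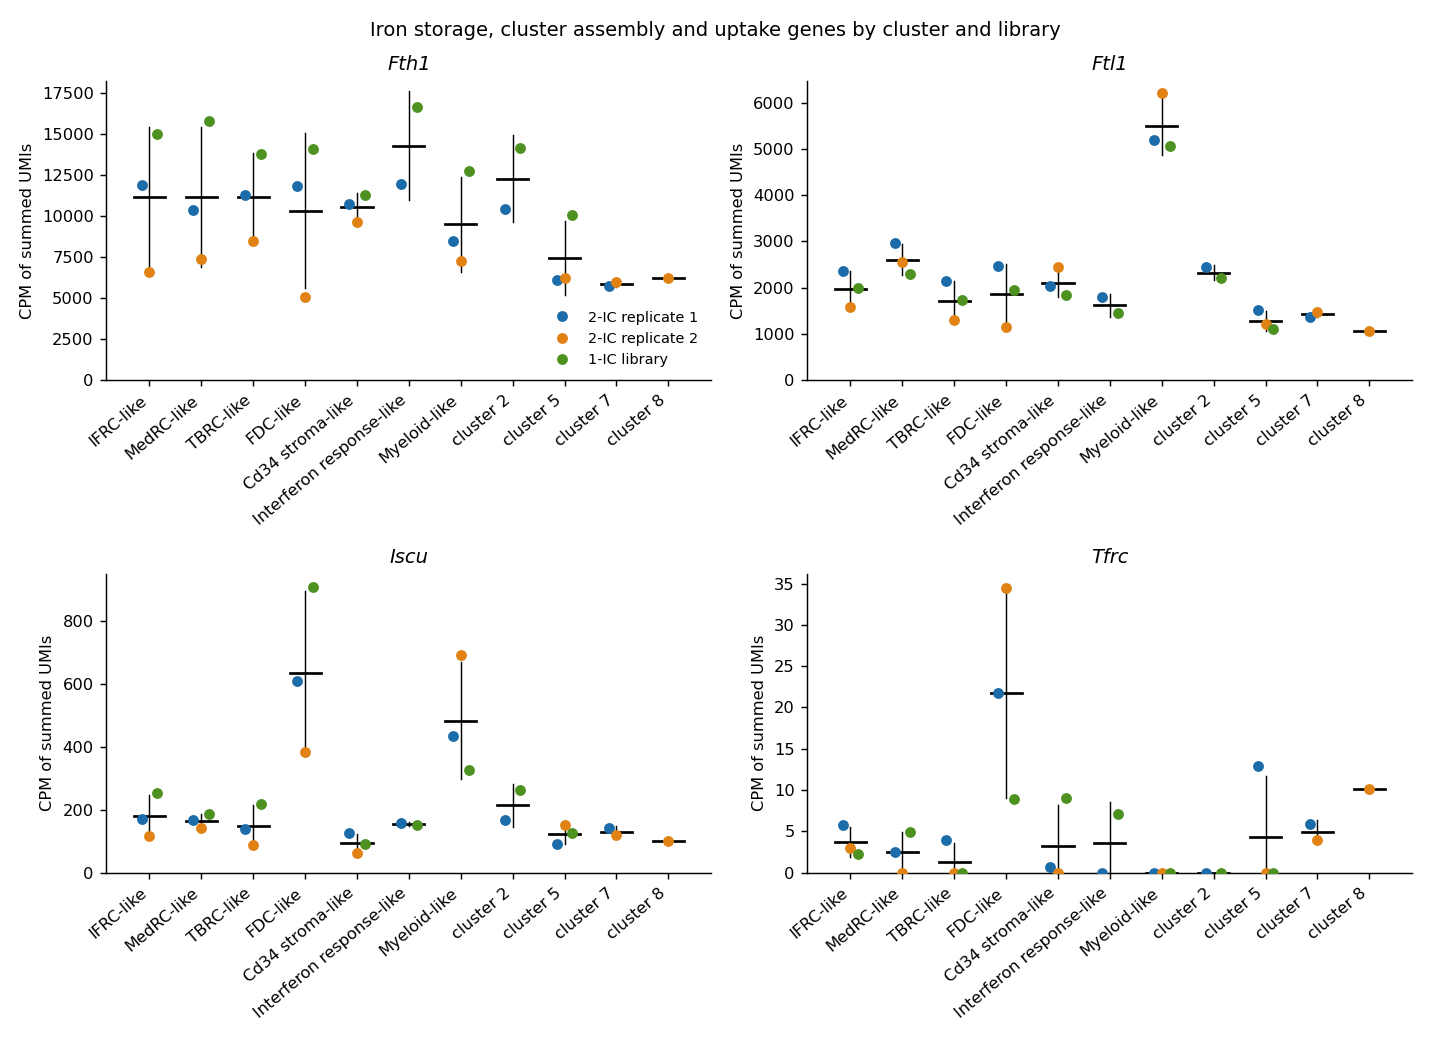
Fth1, Ftl1, Iscu and Tfrc by cluster, in CPM of the UMIs summed per library and cluster (y axes, linear from 0, each panel on its own scale); dots are libraries with at least 5 cells, black bars means and thin lines ± 1 SD. Ftl1 stands apart in Myeloid-like cells (5069 to 6210 CPM), and Iscu and Tfrc have their highest means in FDC-like cells (634 and 21.7 CPM).

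The libraries were then set side by side. The 1-IC condition had 1 library, so no test was run, and intervals cover counting error only. Genes at or above 50 CPM in either library were compared, which left 5 of the 7 members, without Slc40a1 and Tfrc. With the 1-IC library set against replicate 1 of the 2-IC group, 0 of 5 members were at least 2-fold apart, beside 2.32% of 3109 genes. Set against replicate 2 there were 4 of 5, beside 11.8% of 3440 genes. The 2-IC libraries, given the same treatment, had 2 of 5 apart, beside 5.36% of 3395 genes.

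Hamp2 showed this pattern. Over all kept cells it was at 118 and 46.6 CPM in the 2-IC replicates 1 and 2, and at 116 with 1 IC. The log2 ratio of the 1-IC library was -0.03 (-0.25 to 0.17) to replicate 1 and 1.31 (1.05 to 1.57) to replicate 2, and that of replicate 2 to replicate 1 was -1.35 (-1.55 to -1.15). The gap between the 2-IC replicates was thus as wide as that to the 1-IC library.

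The make-up of the libraries differed as well, and its part in this gap was not tested. IFRC-like cells were 21 of 391 kept cells in 2-IC replicate 2, beside 320 of 1526 in replicate 1 and 54 of 326 in the 1-IC library. By marker UMIs, the IFRC gate held 27 cells in 2-IC replicate 2, 134 in replicate 1 and 42 in the 1-IC library. Hamp2 in this gate was at 19.9 CPM in replicate 2 and 182 in replicate 1. Within IFRC-like cells the log2 ratio of replicate 2 to replicate 1 was -0.11 (-0.45 to 0.21), and those of the 1-IC library were 0.44 (0.18 to 0.69) and 0.55 (0.17 to 0.94), higher than either. There 0, 2 and 0 of 4 members were 2-fold apart in the 3 pairs, in the order given above, beside 3.84%, 17.3% and 9.4% of genes.

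Hamp differed more. It was at 67.3, 8.11 and 60.3 CPM over kept cells, with log2 ratios of the 1-IC library of -0.16 (-0.45 to 0.13) and 2.89 (2.39 to 3.42). Within FDC-like cells, the ratio of the 1-IC library was -1.36 (-1.68 to -1.06) to replicate 1 and 2.07 (1.41 to 2.79) to replicate 2, so that it lay between the 2-IC replicates. There 1, 3 and 3 of 4 members were 2-fold apart, beside 4.64%, 22.5% and 16.3% of genes.

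Iscu and Fth1 were highest in the 1-IC library. Iscu was at 196, 132 and 366 CPM over kept cells, with log2 ratios of the 1-IC library of 0.90 (0.78 to 1.03) and 1.48 (1.33 to 1.62) and, within IFRC-like cells, of 0.57 (0.25 to 0.88) and 1.11 (0.57 to 1.68). For Fth1 the ratios were 0.39 (0.37 to 0.40) and 1.19 (1.17 to 1.22), and the 2-IC replicates were 0.81 apart. Ftl1 was at 2338, 1378 and 1967 CPM, with the 1-IC library between the 2-IC replicates. With 1 library, treatment and library cannot be told apart.

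Genes that resembled the members were sought over the 20 sums of a library and a cluster with at least 20 cells, by Pearson's r of log2(CPM + 10) among 5994 genes of at least 50 CPM in some sum. The sums share libraries and depth, so r is a description. The genes most like Hamp2 were Scg3 (r = 0.82), Crip3 (0.75), Dek (0.75), Tnfsf11 (0.73), Cdkn2c (0.70), Ckb (0.70), Fgfr2 (0.69), Mrps6 (0.68), Sdpr (0.68) and Prkg2 (0.68). Within the 9 sums of 2-IC replicate 1, Tnfsf11 had the highest r of these 10, 0.92, and Sdpr and Dek had the lowest, 0.38 and 0.46.

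Several were high in the clusters highest in Hamp2. Scg3, a granin of secretory granules, was at 277 ± 78.7 CPM in IFRC-like and 199 ± 49.0 in MedRC-like cells, against 98.9 ± 2.82 in TBRC-like cells. Fgfr2, a growth factor receptor, was at 66.6 ± 0.858, 64.2 ± 6.51 and 14.0 ± 12.6 CPM, and Prkg2, a kinase activated by cyclic GMP, at 139 ± 18.0, 114 ± 46.6 and 16.3 ± 14.6 (n = 3). The highest mean of Fgfr2 was in Interferon response-like cells, at 69.0 ± 47.1 CPM (n = 2 libraries). These genes were also found in FDC-like cells, Scg3 at 153 ± 51.1, Fgfr2 at 46.9 ± 14.98 and Prkg2 at 63.6 ± 28.9 CPM.

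Hamp was most like genes of FDC-like cells, Lrat (r = 0.90), Rarres1 (0.90) and Itgb4 (0.89). Lrat, which esterifies retinol, was at 51.5 ± 17.6 CPM in FDC-like and 10.6 ± 10.9 in IFRC-like cells. Itgb4, an integrin chain, was at 116 ± 24.98 and 1.25 ± 1.17 CPM, and Rarres1 at 93.3 ± 79.4 and 3.92 ± 3.56. For Iscu the leading genes were Fam213b (0.93), Htra4 (0.92) and Gm10851 (0.90), for Fth1 Sem1 (0.95), Ndufs7 (0.94) and Ubb (0.93), and for Ftl1 Msrb1 (0.92), Aes (0.90) and Ppdpf (0.89). Among the members themselves, r was 0.03 between Hamp2 and Hamp, 0.62 between Hamp and Iscu and 0.51 between Fth1 and Ftl1.

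The rest of iron biology was read from a list of 75 other iron genes, of which 74 were in the files. Their UMIs were summed per library and gate, and each gate was compared with the mean of the other 3 gates by the edgeR quasi-likelihood test with the library as a block, Benjamini-Hochberg adjusted over all 7254 genes tested, at an adjusted p under 0.05. The filter on low counts kept 49 of the listed genes and 5 of the 7 members. The list was chosen with earlier results of these data known, so its calls are not an independent test. Since each gate was set against the mean of the other 3, a gene lower in one gate tends to be higher in another. Calls of the same gene in different gates are thus not independent. Most cells of the MedRC gate were of clusters other than MedRC-like, as given above. Of the 49, 15 were called in the FDC gate (30.6%, beside 22.4% of all genes tested), 1 in the IFRC (2.04%, beside 3.87%), 10 in the MedRC (20.4%, beside 15.2%) and 1 in the TBRC gate (2.04%, beside 4.51%). In the FDC gate 8 were higher and 7 lower, beside 12.5% and 9.9% of all genes, and in the MedRC gate 7 and 3, beside 9.19% and 6.05%. The call in the IFRC gate was higher, as were 2.21% of all genes, and that in the TBRC gate lower, as were 1.76%. At an unadjusted p under 0.05 there were 20, 5, 16 and 7 of the 49, beside 2323, 998, 1915 and 1143 of all 7254 genes. The median log2 fold change of the listed genes was -0.04, 0.12, 0.02 and -0.07, and that of all genes 0.00, 0.02, 0.01 and -0.03.

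Of the genes of iron uptake and reduction, 4 of the 11 listed were tested, each gate against the mean of the others. Trf, transferrin, which carries iron in plasma, was at 536, 484 and 844 CPM in the FDC gate and at 196, 186 and 204 in the MedRC gate. It rose in the FDC gate (log2 fold change 1.39, SE 0.15, adjusted p = 4.0e-08 by edgeR) and fell in the MedRC gate (-0.72, adjusted p = 0.00205 by edgeR). Steap4, a metalloreductase of the cell surface and endosomes, ran the other way, at 166, 91.1 and 34.2 CPM in the FDC and 517, 467 and 307 in the MedRC gate. Its log2 fold changes were -1.64 (SE 0.19, adjusted p = 2.37e-07 by edgeR) and 1.28 (adjusted p = 1.16e-06 by edgeR). Steap2, of the same family, fell in the FDC gate (-1.47, adjusted p = 0.0161 by edgeR), as did the metal importer Slc39a14 (-0.95, adjusted p = 0.0430 by edgeR). All 4 were thus called in the FDC gate, beside 22.4% of all genes tested, and 2 of them, Trf and Steap4, in the MedRC gate, beside 15.2%. In the MedRC gate Steap2 (0.66, adjusted p = 0.156 by edgeR) and Slc39a14 (0.37, adjusted p = 0.381 by edgeR) were not called.

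Cp, ceruloplasmin, which oxidises iron as it leaves the cell through ferroportin, followed Steap4. It was at 185, 437 and 52.9 CPM in the FDC and 614, 844 and 410 in the MedRC gate, with log2 fold changes of -1.18 (SE 0.21, adjusted p = 0.000116 by edgeR) and 1.01 (adjusted p = 0.000223 by edgeR). Over all kept cells Cp was at 512 ± 191 CPM, Heph, the related ferroxidase hephaestin, at 6.68 ± 2.08 and Hephl1 at 0.

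Of the genes that control hepcidin in liver, 15 of 20 were tested. In the FDC gate 5 were higher and 1 was lower, so that 40% were called, beside 22.4% of all genes tested. Id1, a target gene of bone morphogenetic protein signalling, was at 305, 120 and 233 CPM in the FDC, 219, 54.6 and 274 in the IFRC, 156, 44.9 and 55.7 in the MedRC and 33.1, 24.5 and 49.1 in the TBRC gate. It rose in the FDC gate (1.48, SE 0.21, adjusted p = 5.66e-06 by edgeR) and in the IFRC gate (0.91, adjusted p = 0.0166) and fell in the TBRC gate (-2.22, adjusted p = 0.000137). Bmp2, a ligand of this pathway, was at 58.0, 57.6 and 40.5 CPM in the FDC gate and rose there (1.17, adjusted p = 0.0107 by edgeR). Smad1 (0.63, adjusted p = 0.0265 by edgeR) and Smad4 (0.58, adjusted p = 0.0178 by edgeR), which carry its signal to the nucleus, and Il6st (0.52, adjusted p = 0.0113 by edgeR), the shared receptor of interleukin-6 type cytokines, rose by less, and Il6st turned to -0.10 with contaminant barcodes kept. The calls of Bmp2, Smad1 and Smad4 were also lost with those barcodes kept. Of 11 alternatives, the call of Id1 in the FDC gate held in 11, Bmp2 in 10, Il6st in 7, Smad4 in 6 and Smad1 in 5.

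Socs3, a target and inhibitor of STAT3 signalling, had its highest level in the MedRC gate. It was at 889, 624 and 864 CPM there and rose (1.24, SE 0.15, adjusted p = 1.89e-06 by edgeR), and it was at 315, 367 and 252 CPM in the FDC gate and fell (-0.62, adjusted p = 0.0102 by edgeR). Hfe, which takes part in iron sensing, was at 35.4, 37.8 and 35.0 CPM in the MedRC and 16.6, 19.2 and 18.7 in the FDC gate, and rose in the MedRC gate (1.14, adjusted p = 0.00148 by edgeR). Stat3 itself, at 151 ± 61.6 CPM over kept cells, was called in no gate.

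Iron-sulfur assembly genes, the partners of Iscu, were called at shares near those of all genes. The share was 18.2% in the FDC and 18.2% in the MedRC gate, beside 22.4% and 15.2% of all genes tested. Of 11 tested, 2 rose in the FDC gate, Nfu1, which delivers clusters to enzymes (106, 69.6 and 115 CPM; log2 fold change 1.15, adjusted p = 2.42e-05 by edgeR), and Ciapin1 of the cytosolic branch (30.8, 36.0 and 18.7 CPM; 1.22, adjusted p = 0.00834 by edgeR). In the MedRC gate Isca1 rose (0.76, adjusted p = 0.0483 by edgeR) and Ciapin1 fell (-1.01, adjusted p = 0.0463 by edgeR), but each of these 2 calls held in only 3 of 11 alternatives and was lost with DESeq2 and without any 1 of the libraries. The most abundant of the role, Hspa9 (113 ± 20.6 CPM over kept cells), Bola3 (96.1 ± 21.7) and Glrx5 (86.1 ± 15.4), were called in no gate.

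Of 12 tested genes of haem synthesis, transport and breakdown, Lrp1, a receptor that takes up haem bound to hemopexin among other ligands, was at 124, 146 and 24.9 CPM in the FDC and 390, 446 and 361 in the MedRC gate. Its log2 fold changes were -1.43 (SE 0.22, adjusted p = 1.43e-05 by edgeR) and 1.23 (adjusted p = 1.30e-05 by edgeR). Blvrb, which reduces biliverdin, fell in the FDC (-0.82, adjusted p = 0.00498 by edgeR) and rose in the MedRC gate (0.70, adjusted p = 0.00294 by edgeR), but turned to 0.46 in the FDC gate with contaminant barcodes kept. Hmox2 (51.6 ± 9.70 CPM) was called in no gate. Among 3 iron sensors, Fbxl5, which marks an iron regulatory protein for degradation, fell in the MedRC gate (-0.68, adjusted p = 0.0162 by edgeR), and Aco1 (38.3 ± 2.38 CPM) and Ireb2 (31.2 ± 10.8), the iron regulatory proteins, were not called. Of the chaperones and ferritin receptors, Pcbp2 (326 ± 59.1 CPM), Pcbp1 (253 ± 20.6) and Ncoa4 (34.7 ± 4.39) were called in no gate.

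Of the 27 calls, 9 held under every alternative tried, namely Trf, Id1, Nfu1, Steap4 and Lrp1 in the FDC and Steap4, Socs3, Lrp1 and Hfe in the MedRC gate. 2-IC replicate 1 gave 145 of the 230 cells of the FDC gate. Without it 9 of 45 listed genes tested were called there, beside 13.8% of all genes tested, and 5 in the MedRC gate, beside 8.19%. With barcodes that carried contaminant genes kept, 28 of 61 were called in the FDC gate, beside 33.3% of all genes. Without the library block it was 8 of 48, beside 10.5%. The calls that held in fewest of the 11 alternatives were Isca1 and Ciapin1 in the MedRC gate (3 each) and Slc39a14 and Smad1 in the FDC gate (5 each).

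**Figure D5:**
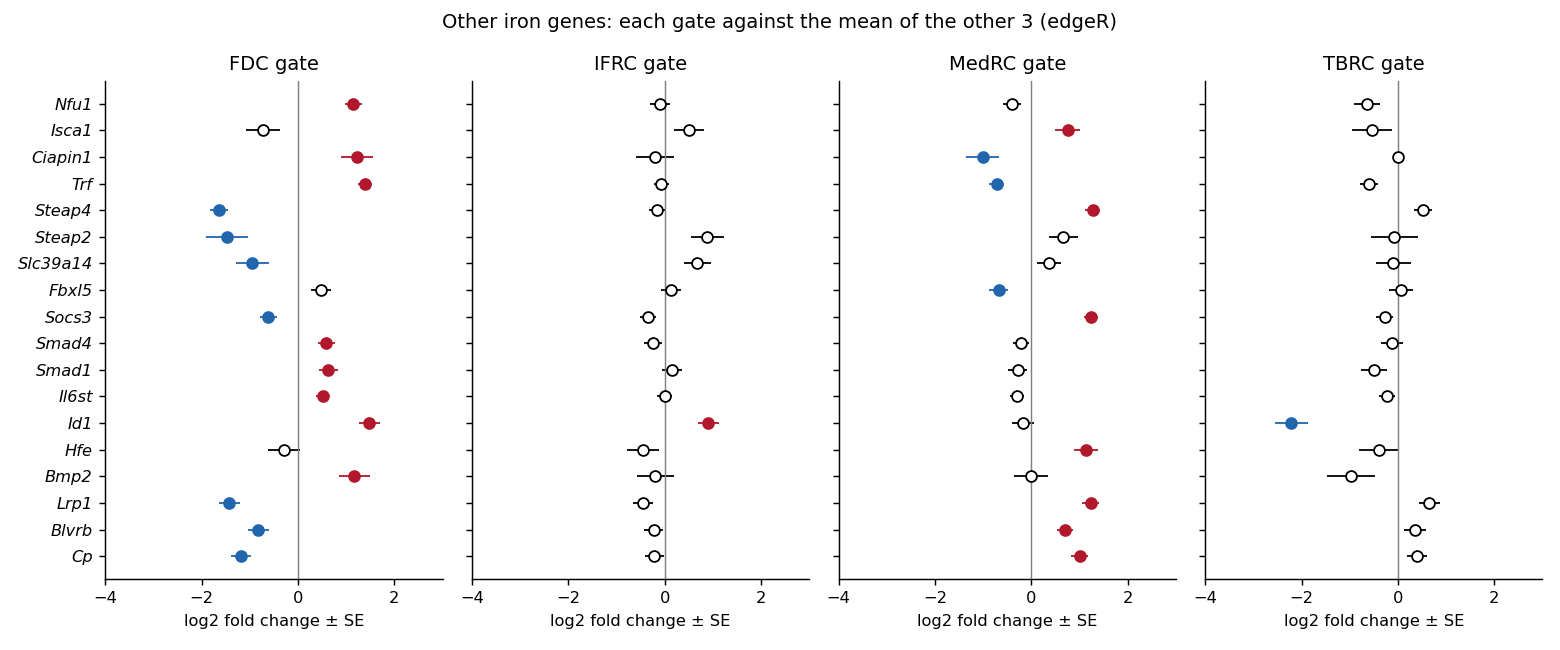
Log2 fold change ± SE (x axis) of each iron gene called in some gate (rows) in the FDC, IFRC, MedRC and TBRC gates against the mean of the other 3 gates, fitted with edgeR; red and blue filled dots are calls higher and lower at an adjusted p under 0.05 and open dots are not called. Trf, Id1, Bmp2 and Nfu1 lie to the right and Steap4, Lrp1 and Cp to the left in the FDC gate, and the last 3 lie to the right in the MedRC gate.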

How the data were processed

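Sorted lymph node stromal cells were sequenced in 3 libraries with the Chromium 3′ kit. The authors aligned the reads to GRCm38 with Ensembl release 89 and deposited raw UMI counts per gene and barcode from Cell Ranger (5.0.0 in the matrix headers), without normalization. The members and gene lists were chosen with earlier results of these data known. Libraries were grouped by their titles.

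Barcodes with at least 200 genes, at most 10% mitochondrial UMIs and no count of 13 contaminant genes were kept, following the filters of the original work. Cells were clustered in Seurat 5.3.0 (R 4.3.3; 2000 variable genes without the members and the iron list, 10 principal components, 20 neighbours, resolution 0.8, libraries merged without integration). A cluster was named X-like from marker genes, so a difference from the original names may come from rebuilt names. No doublets were removed in the main setting. Scrublet (scanpy 1.11.5) called 1, 4 and 12 doublets, too few in 2-IC replicate 1 (0.0319%) to have worked there. UMIs were summed per library and cluster or gate (at least 5 cells) and scaled to CPM. Gates were compared by the quasi-likelihood test of edgeR 4.0.16 with the library as a block, after filterByExpr and TMM scaling. With this block, the p-values measure how far the differences between gates vary across these libraries, which include both treatments. On counts simulated for the FDC gate contrast over 7254 genes, edgeR called 63 of 100 genes changed 2-fold and 97 of 100 changed 4-fold. Intervals are exact 95% intervals for counting error. Sequences came from RefSeq (promoters) and GENCODE M21 (transcripts). RefSeq promoter windows matched 4 members besides Hamp2, namely Hamp, Fth1, Ftl1 and Tfrc.

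The genes named are the 7 members, the 3 most abundant other iron genes of each role, those called between gates up to 10 by fold, the 10 genes most like Hamp2 and the 3 most like each other member, and the gate markers. Further called iron genes, and genes that lead a cluster, were named after their values were seen. Alternatives changed the test tool (DESeq2 1.42.0), scaling, filters, block, gates, doublets, depth, clustering and libraries.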

Additional observations from a re-analysis of the deposited data

Results flagged for a closer look

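Tfrc differed in direction between the groups in the MedRC gate. On the scale of log2(CPM + 1), this gate was 0.53 above the mean of the other gates in the 1-IC library, and -0.71 and -1.42 relative to it in the 2-IC libraries. The difference was not tested, and the MedRC gate held 6, 6 and 2 Tfrc UMIs.

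The barcodes removed for contaminant genes (1607, 365 and 298) were used in no comparison of the main setting, and every member had UMIs in them. Hamp2 had 573 UMIs there, at 41.7, 10.3 and 17.0 CPM, below the kept cells in each library. Hamp had 923 UMIs, more than the 729 of kept cells, at 70.2, 8.71 and 35.7 CPM. Tfrc had 241 UMIs, at 12.2, 12.7 and 12.9 CPM, above the 5.16, 7.76 and 3.96 of kept cells. Slc40a1 had 7 UMIs, Fth1 124091, Ftl1 32327 and Iscu 2559. Groups of 1 and 2 libraries are too small for a check of outlying samples.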

How the results depend on the processing

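For the counts of iron genes called between gates, the fit without the library as a block called 8 in the FDC, 0 in the IFRC, 4 in the MedRC and 0 in the TBRC gate, beside 10.5%, 0.697%, 4.63% and 1.05% of all genes (2 and 6 genes at an unadjusted p under 0.05 in the gates at 0), against 15, 1, 10 and 1 with it. That fit tested 48 of the listed genes, and the fit with the block 49. The block is the library. Only number 1 is shared between the groups, so no pairing of 2-IC with 1-IC libraries was possible, and gates within a library were paired by their shared cell suspension. With contaminant barcodes kept, 61 listed genes were tested. Of these, 28, 4 and 4 genes were called in the FDC, IFRC and TBRC gates, beside 33.3%, 5.85% and 6.04% of all genes (22.4%, 3.87% and 4.51% in the main setting), and Blvrb (0.46) and Il6st (-0.10) in the FDC gate changed sign. The cause was not tested. DESeq2 called 0 in the IFRC gate, beside 2.73% of all genes (4 at an unadjusted p under 0.05). The TBRC gate had 2 calls without TMM, 3 with no filter on low counts and 3 with gates at 2 UMIs. These were of 49, 69 and 46 tested, beside 4.76%, 1.76% and 4.6% of all genes. With each library left out in turn, 45 to 56 listed genes were tested. Of all genes, 13.8% to 18.8% were then called in the FDC and 8.19% to 11.7% in the MedRC gate. In the IFRC and TBRC gates it was 1.58% to 2.8% and 2.01% to 4.11%. Leaving out each library gave 9 to 14 calls in the FDC, 0 to 1 in the IFRC, 5 to 9 in the MedRC and 0 to 1 in the TBRC gate. The lowest of each came without 2-IC replicate 1, that of the IFRC gate also without the 1-IC library, and at 0 calls edgeR had 5 (IFRC) and 8 (TBRC) genes at an unadjusted p under 0.05. Where this left the 1-IC group or a gate with 1 sum, the spread was taken from the other sums.

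Of the levels, Hamp2 in IFRC-like cells moved from 314 to 383 CPM at resolution 1.2 and to 241 without the highest cell of each library, an alternative added after seeing the data, as was leaving out shared barcodes. In MedRC-like cells it moved from 219 to 123 CPM with contaminant barcodes kept, where no cluster was FDC-like and Hamp had no value. Between the 1-IC library and 2-IC replicate 2, members 2-fold apart went from 4 to 2 with contaminant barcodes kept and to 2 at a minimum of 200 CPM. Fewer members were compared there. With contaminant barcodes kept Hamp dropped out and the log2 ratio of Fth1 was 0.98, and at 200 CPM only Fth1, Ftl1 and Iscu were left. Between the 2-IC libraries the count went from 2 to 0 at 200 CPM, where 2 members were compared. Other scalings of the library sums changed no such count by over 1.5 times. Taking each 2-IC library on its own is the comparison given in the report.

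Depth limits Slc40a1 and Tfrc, with 6 and 95 UMIs in kept cells. Small library and cluster sums, such as the 10 MedRC-like cells of 2-IC replicate 2, limit single values.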

Other observations

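Cells with Tnfsf11 and Madcam1 but no Cr2, as known for marginal reticular cells, numbered 24, 7 and 10 within the IFRC gate. Madcam1 also led the FDC-like cluster, which held 28 cells of the IFRC gate. Follicular dendritic cells without a Cr2 UMI could thus not be told apart from them. The split by Madcam1 was made after the values were seen and was not tested. Hamp2 was at 54.6, 52.3 and 92.3 CPM in the IFRC gate cells with Madcam1, from 9, 6 and 6 UMIs, and at 214, 6.94 and 74.7 in those without it, so that neither was higher in all libraries. Hamp was at 200.1, 8.72 and 30.8 CPM with Madcam1 and at 102, 10.4 and 66.4 without it. The Hamp of the IFRC gate lay mostly in cells of the FDC-like cluster in 2-IC replicate 1, at 862 CPM in 14 cells with 84 of 101 UMIs. In the 1-IC library it lay in the IFRC-like and MedRC-like clusters, with 15 of 18 UMIs in 20 cells, 13 of them in a single cell.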
